A study of Rattus norvegicus with 2 samples.

Results

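The calmodulin-dependent kinases are 8 genes, Camk2a, Camk2b, Camk2d, Camk2g, Camk4, Camk1, Camkk1 and Camkk2, out of 4736 genes named on a rat expression array, and 18 of its 8740 non-control probe sets read them. The members are all probe sets whose single gene symbol in the platform's annotation is one of these names, and the rule uses names only. The RNA was hippocampal, from Sprague Dawley rats aged postnatal day 70. In 1 sample it was purified from synaptosomes, nerve endings pinched off together with attached postsynaptic membrane, and in the other from the whole hippocampus; each was measured on 1 array. The labels name no treatment or genetic change, and they do not give the number of animals. The question was which transcripts the synaptic fraction holds in excess of the tissue as a whole.

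Calcium that enters a neuron through NMDA receptors and calcium channels binds calmodulin, which switches these kinases on. The Camk2 genes encode the alpha, beta, delta and gamma subunits of CaMKII, a large multimeric kinase that is abundant at hippocampal synapses and needed for long-term potentiation. Camk2a mRNA is a standard example of a transcript carried into dendrites and translated there, whereas Camk2b mRNA is described as staying mostly in the cell body. Camkk1 and Camkk2 encode kinases that phosphorylate and activate the products of Camk1 and Camk4, and the latter acts largely in the nucleus on the transcription factor CREB.

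Camk2a, the dendritic member, did not differ by 2-fold between synaptosomes and total hippocampus with either of its probe sets. Its paralogue Camk2b was likewise within 2-fold with both of its probe sets. Camk2g read lower in synaptosomes, 2.31-fold with its brightest probe set, and Camk2d was divided. Of the 2 Camk2d probe sets above the floor on both arrays, 1 was 2.70-fold higher and 1 was 1.34-fold lower. The upstream kinases Camkk2 and Camkk1 were 3.47-fold and 2.04-fold higher, and Camk4 and Camk1 read too low for a usable ratio. All readings of Camk2a, Camk2d, Camk2g and Camkk2 were smaller than sizes that negative readings on the same array reached, as set out below. With 1 array per group there is no replicate error and no test, and every fold below describes these 2 arrays only. In RNA from a mixed tissue, fewer cells or endings that carry a transcript and less of it in each cannot be told apart.

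A few quantities are needed to read the values. The intensities are the authors' deposited linear signals. Readings of 0 or less made up 25.2% of the non-control values in synaptosomes and 31.4% in total hippocampus. Readings under a floor of 846, the median of all non-control readings, were raised to it before log2 was taken. The log2 ratio is synaptosomes minus total hippocampus, centred by subtracting the median of -0.17, which multiplies the fold of a higher gene by 1.13. A probe set entered the counts if its mean log2 level reached 10.07, a signal of 1078. A fold with 1 array at the floor is written "at least" and holds with the readings taken at face value. Such a probe set, if past the filter, could only come out on the side of the other array, so its direction is no separate result. As a yardstick of scatter, 95% of the negative readings were smaller in size than 2912.6 in synaptosomes and 5280.25 in total hippocampus. Only 2 of the 18 kinase probe sets, M16112_g_at of Camk2b and S83194_s_at of Camkk1, read above these sizes on both arrays. The only measurable error was the spread among probe sets of a gene, a standard deviation (SD) of 0.90 in log2 ratio over the 658 genes with several past the filter. This spread leaves out animals and preparations. Over all probe sets with 1 symbol past the filter, of whatever gene, the SD was 1.06. A gap under 0.90 is therefore only a weak mark of agreement between probe sets.

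Of the 18 probe sets, 9 exceeded the floor in synaptosomes and hippocampus alike, 4 in hippocampus only, 0 in synaptosomes only and 5 in neither. The filter passed 12 probe sets of 6 genes; Camk4 and Camk1 had none. With the brightest probe set standing for each gene, 3 of the 6 genes were at least 2-fold higher in synaptosomes and 1 at least 2-fold lower. Among all 2735 genes past the filter the shares were 19.1% higher and 14.3% lower, or 522 and 391 genes, and without centring 403 and 532. The kinases' median log2 ratio was 0.41, against 0.0014 for all genes. The counts depended on which probe set spoke for a gene. With the mean over probe sets 2 kinases were higher and 0 lower. Without probe sets whose name carries a suffix (_s_at, _g_at, _i_at, _f_at or _r_at), 1 was higher and 0 lower.

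**Figure D1:**
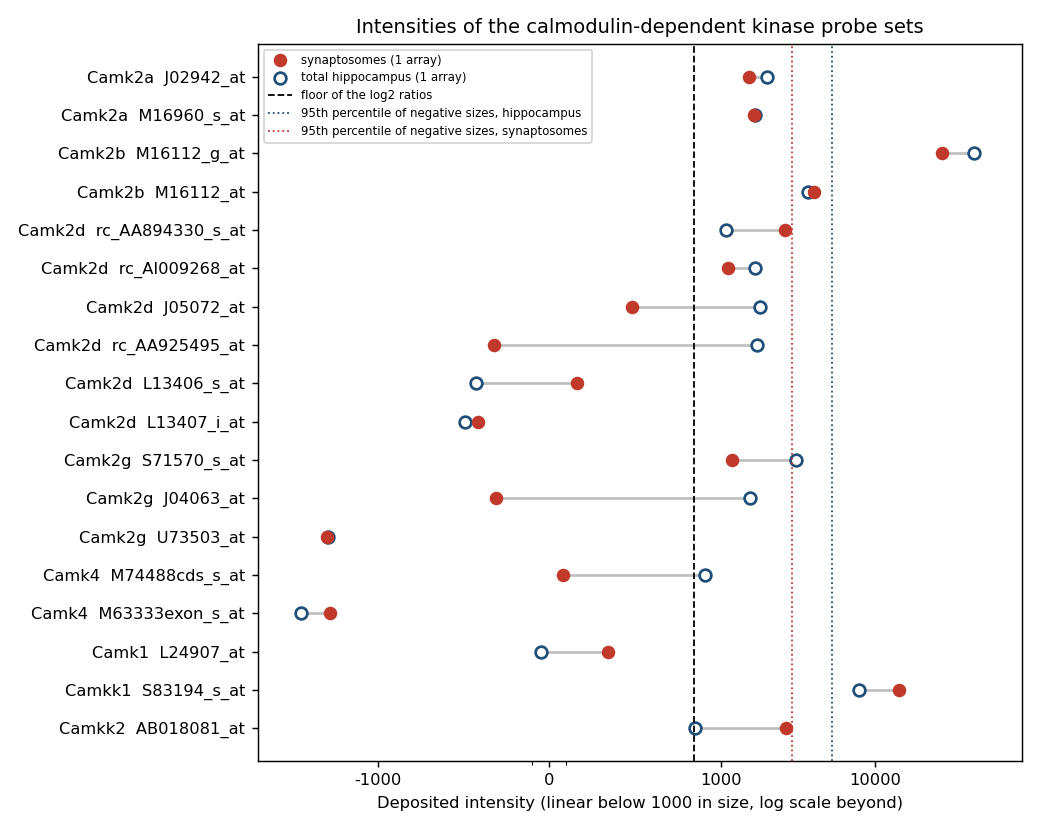
Deposited intensity of each of the 18 kinase probe sets on the synaptosome array (filled) and the hippocampus array (open), with the axis linear below 1000 in size and logarithmic beyond. The dashed line is the floor of 846, and the dotted lines mark 2912.6 and 5280.25, the 95th percentiles of the size of negative readings on the synaptosome and the hippocampus array. Most readings lie to the left of the dotted lines, and M16112_g_at of Camk2b and S83194_s_at of Camkk1 are the probe sets with both readings to the right of them.

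Camk2a, the alpha subunit, was read by J02942_at at 1522 in synaptosomes and 1990 in total hippocampus. Its other probe set, M16960_s_at, read 1650 in synaptosomes and 1674 in total hippocampus. The hippocampus reading was the higher in both, by 1.31 times and 1.01 times before centring. The centred log2 ratios, -0.22 and 0.15, lie on opposite sides of 0. Their gap of 0.37 is less than the SD of 0.90, a weak mark of agreement. The ratios of -0.22 and 0.15 exceeded those of 41.8% and 55.8% of all genes, so that Camk2a sat near the middle of the array. All 4 readings were under the yardstick sizes, so even a 2-fold difference may not be detectable at this signal.

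Camk2b, the beta subunit, was read by a pair of probe sets designed on the same source sequence. M16112_g_at read 27234 in synaptosomes and 43597 in total hippocampus, both above the yardstick sizes. M16112_at read 3991 in synaptosomes and 3662 in total hippocampus. The former gave a centred log2 ratio of -0.51, or 1.42-fold lower, and the latter one of 0.29. Their spread of 0.80 was again less than the SD of 0.90, which is a weak mark of agreement. The sign of the Camk2b ratio depended on the probe set: without suffixed probe sets the gene was represented by M16112_at and turned positive.

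Camk2d, the delta subunit, had 6 probe sets and the widest spread. The brightest, rc_AA894330_s_at, read 2604 in synaptosomes and 1085 in total hippocampus, 2.70-fold higher. The other probe set above the floor on both arrays, rc_AI009268_at, read 1106 in synaptosomes and 1665 in total hippocampus, 1.34-fold lower. J05072_at read 482 in synaptosomes and 1803 in total hippocampus, at least 1.89-fold lower. For rc_AA925495_at the readings were -321 and 1711, at least 1.80-fold lower. L13406_s_at (160 and -428) and L13407_i_at (-415 and -492) were under the floor on both arrays and gave no ratio. Among probe sets above the floor on both arrays, 1 was thus higher and 1 lower. The pair at the floor in synaptosomes passed the filter through the hippocampus reading alone and could only come out lower. The 4 ratios spanned 2.35 on the log2 scale, from -0.92 to 1.43, with an SD of 1.10. With the mean over probe sets the gene's ratio was -0.19, and without suffixed probe sets it was -0.42, so no direction can be assigned to Camk2d. All of its readings were under the yardstick sizes.

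Camk2g, the gamma subunit, was read highest by S71570_s_at, at 1181 in synaptosomes and 3076 in total hippocampus. J04063_at read -312 in synaptosomes and 1541 in total hippocampus. The first gave a ratio of -1.21, 2.31-fold lower, and the second was at least 1.62-fold lower. U73503_at read -2135 and -2087 and gave no ratio. All Camk2g readings were under the yardstick sizes, so the size of the fold is uncertain. The direction of Camk2g rests on S71570_s_at, since J04063_at passed the filter through its hippocampus reading alone and could only come out lower. The gene's ratio stayed negative under all 9 alternatives, at -1.38 to -0.053, although with the floor raised to 2798.5, above the synaptosome reading, it was reduced to -0.053. With the mean over probe sets it was -0.95 and without suffixed probe sets -0.69, both short of 2-fold.

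**Figure D2:**
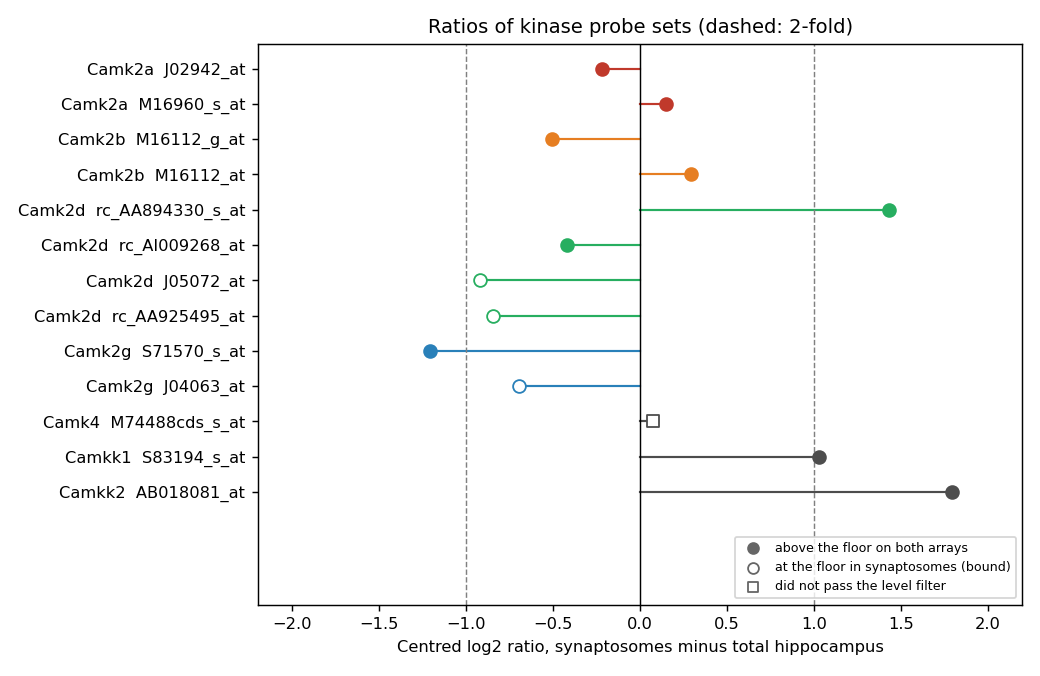
Centred log2 ratio, synaptosomes minus total hippocampus, of the 13 kinase probe sets above the floor on at least 1 array, coloured by CaMKII gene, with the other kinases in grey. Open circles are bounds with the synaptosome reading at the floor, the open square did not pass the level filter, and dashed lines mark 2-fold. Both Camk2a probe sets lie close to 0, at -0.22 and 0.15, and those of Camk2d lie on both sides of it, from -0.92 to 1.43.

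Set against its paralogues, Camk2a had a ratio above some of their probe sets and below others. With the brightest probe sets, its log2 ratio was 0.29 above that of Camk2b and 0.99 above that of Camk2g, while Camk2a minus Camk2d was -1.65. Its difference from the median of the 3 paralogues was 0.29, and it ranged from 0.010 to 0.29 over the 8 alternatives that gave a value. Pairing each of the 2 Camk2a probe sets with each of the 8 measurable paralogue probe sets gave 16 differences. Camk2a had the higher ratio in 12 of them and the lower in 4, which were those against M16112_at of Camk2b and rc_AA894330_s_at of Camk2d. The differences ran from -1.65 to 1.36, and those against a paralogue at the floor in synaptosomes are lower bounds. Such paralogue probe sets passed the filter through the hippocampus reading alone, so Camk2a, at its ratios, could only come out above them. A difference between single probe sets of different genes carries the scatter of both, an SD of 1.28 by the measure above, and 3 of the 16 exceeded it. Among these 3, 2 placed Camk2a below rc_AA894330_s_at of Camk2d and 1 placed it above S71570_s_at of Camk2g. The 16 pairs share probe sets and are not independent. With paralogue probe sets above the floor on both arrays only, Camk2a was the higher in 6 of 10 pairs.

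**Figure D3:**
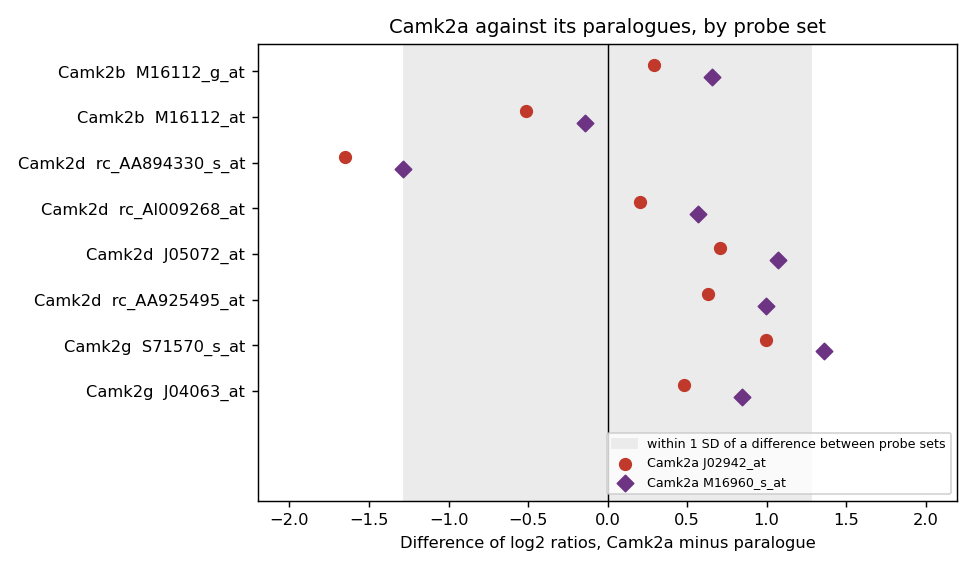
Difference of centred log2 ratios, Camk2a minus paralogue, for each Camk2a probe set (circles J02942_at, diamonds M16960_s_at) against each paralogue probe set that gave a ratio. The grey band is 1 SD of a difference between single probe sets, 1.28 either way; 13 of the 16 differences lie within it.

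The upstream kinases had a probe set each, and both were higher in synaptosomes. Camkk2 was read by AB018081_at at 2629 in synaptosomes and 852 in total hippocampus. The ratio of 1.80, 3.47-fold, exceeded that of 94.5% of genes and remained between 1.63 and 1.85 under the 8 alternatives that gave a value. The hippocampus reading was only just above the floor of 846, and both readings were under the yardstick sizes, so the size of this fold is uncertain. Camkk1 was read by S83194_s_at at 14285 in synaptosomes and 7873 in total hippocampus, both above the yardstick sizes. Its ratio was 1.03, or 2.04-fold, larger than that of 81.7% of genes. It stood at the threshold: without centring it was 1.81-fold, and it also fell short of 2-fold without the filter, with the higher floor, after quantile normalization and after loess correction, at log2 ratios of 0.86 to 0.99. With its name carrying a suffix, the probe set has no unsuffixed partner on the array.

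The kinases activated by them were at the edge of detection. Camk4 was read by M74488cds_s_at at 77 in synaptosomes and 905 in total hippocampus, and by M63333exon_s_at at -2045 and -3142. Only the reading of 905 exceeded the floor, by too little to pass the filter. Camk1 was read by L24907_at at 341 in synaptosomes and -48 in total hippocampus. A difference between synaptosomes and hippocampus was thus not detectable for Camk4 or Camk1 on these arrays.

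By the distance between log2 levels over the 2 arrays, the genes with readings most like those of Camk2a (J02942_at) were Atic, an enzyme of purine synthesis, Arsb, a lysosomal sulphatase, Sgk2, a serine/threonine kinase, Or4c52, an olfactory receptor gene, and Arf2, a small GTPase of membrane traffic. Their readings were 1445 to 1586 in synaptosomes and 1921 to 2066 in total hippocampus, at distances of 0.0064 to 0.075. Signals of different probe sets are not on a common scale of abundance, so this likeness says only where the readings lie.

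Kinases related to the members included Camkv, a CaM kinase-like protein of vesicles without catalytic activity, and Dclk1, a microtubule-binding kinase with a CaM kinase-like domain. Of 15 listed relatives 11 were on the array and 7 passed the filter, with a median of 0.32. Of these 7, 2 were at least 2-fold higher and 0 lower, beside 19.1% and 14.3% of all genes. Camkv was 2.44-fold higher with rc_AI102205_s_at, at 15433 and 7113, and at least 4.16-fold higher with L22557_at, at 3128 and -6485. Dclk1 read 6521 in synaptosomes and 2964 in total hippocampus, 2.48-fold higher. Pnck, the beta isoform of CaM kinase I, had a ratio of 0.63 with its brightest probe set and was at least 2.37-fold higher with another. That other probe set and L22557_at of Camkv passed the filter through the synaptosome reading alone and could only come out higher. Camk1g, the gamma isoform, was at least 1.87-fold lower, at 622 and 1781, and passed 2-fold without centring. Having passed the filter through its hippocampus reading alone, Camk1g could only come out lower. Cask, a scaffold with a CaM kinase-like domain, and Eef2k, the calmodulin-dependent kinase of elongation factor eEF2, had ratios of 0.19 and -0.02. The CaMKII inhibitors Camk2n1 and Camk2n2, named after their values were seen, were below 0 on both arrays with all of their probe sets.

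Genes for calmodulin and proteins that bind it were more often lower than higher by 2-fold. Of 7 listed 5 were on the array and all 5 passed the filter. Of these, 3 were at least 2-fold lower, beside 14.3% of all genes, and 1 at least 2-fold higher, beside 19.1%. The median was -1.01. Calm2, which encodes calmodulin, read 54209 in synaptosomes and 149895 in total hippocampus, 2.46-fold lower. Its ratio was short of 2-fold after quantile normalization (-0.34) and after loess correction (-0.51). Gap43, a calmodulin-binding protein of axon endings, read 7946 and 19570, 2.19-fold lower. Nrgn, or neurogranin, which holds calmodulin in dendritic spines, read 13062 and 29598, 2.01-fold lower, with L09119_g_at, and had a ratio of -0.17 with L09119_at. Pcp4, another calmodulin binder, had a ratio of -0.42. Marcks, a membrane protein that binds calmodulin, was 2.44-fold higher with its brightest probe set, but its ratio was -0.076 with the mean over its probe sets. The count of lower genes was 1 after loess correction. It was 2 after quantile normalization, without suffixed probe sets, and when probe sets were averaged.

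Genes for calcium entry and release, upstream of calmodulin, had a median of 0.16. Of 10 listed 8 were on the array and 7 passed. Of these 7, 2 were at least 2-fold higher and 0 lower, beside 19.1% and 14.3% of all genes. Itpr1, the inositol trisphosphate receptor of the endoplasmic reticulum, read 10968 in synaptosomes and 3677 in total hippocampus, 3.36-fold higher, and a second probe set had a ratio of -0.21. Cacna1c, the pore of an L-type calcium channel, was 2.59-fold higher, at 3439 and 1492. The hippocampus readings of Itpr1 and Cacna1c were under the yardstick size of 5280.25, so the size of these folds is uncertain. With the floor of 2798.5 the log2 ratio of Itpr1 was 1.66, and that of Cacna1c fell to 0.38. Cacna1d, another L-type pore, was at least 1.82-fold lower, and Grm5, a metabotropic glutamate receptor, at least 1.55-fold lower. Both passed the filter through the hippocampus reading alone and could only come out lower. The NMDA receptor genes Grin2b and Grin1 had ratios of 0.62 and -0.12. Other probe sets of Grin1 were at least 2.23-fold and at least 2.15-fold higher. They passed the filter through the synaptosome reading alone and could only come out higher. The list's median was slightly below 0 without centring (-0.014), without the filter (-0.021), after quantile normalization (-0.022) and after loess correction (-0.012).

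Targets of the kinases and of calmodulin had a median of 0.80, between the ratio of 0.69 for Map2 and the bound of 0.91 for Creb1. Creb1, at 1408 and -1160, passed the filter through its synaptosome reading alone and could only come out higher. Of 19 listed 14 were on the array and 10 passed. Of these 10, 4 were at least 2-fold higher and 0 lower, beside 19.1% and 14.3% of all genes. Akt1, a kinase that Camkk1 can phosphorylate, read 13524 in synaptosomes and 2618 in total hippocampus, 5.81-fold higher. The transcription factor Mef2d was 5.26-fold higher, at 4513 and 965, and the adenylyl cyclase Adcy3 3.73-fold, at 3220 and 972. The hippocampus readings of Akt1, Mef2d and Adcy3 were under the yardstick size of 5280.25, so the size of these folds is uncertain. With the floor of 2798.5 the log2 ratio of Akt1 was 2.36, and those of Mef2d and Adcy3 fell to 0.77 and 0.29. Gria1, the AMPA receptor subunit phosphorylated by CaMKII, read 9035 and 9481 with its brightest probe set, a ratio of 0.10. M36418_s_at of Gria1 had a ratio of 0.47, and S56679_s_at was at least 2.79-fold higher. The latter passed the filter through the synaptosome reading alone and could only come out higher. Syn1, a synaptic vesicle protein and CaMKII substrate, had a ratio of 0.33. Pde1b, a calmodulin-activated phosphodiesterase, was 1.81-fold lower, and passed 2-fold without centring. With the floor of 2798.5, 2 targets were higher by 2-fold.

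Phosphatases that reverse CaMKII phosphorylation, with their regulators, had a median of 0.93. Of 15 listed 9 were on the array and all 9 passed. Of these 9, 3 were at least 2-fold higher and 0 lower, beside 19.1% and 14.3% of all genes. These 3 were the catalytic subunits of protein phosphatase 1. Ppp1cb read 6603 in synaptosomes and 1467 in total hippocampus, 5.06-fold higher, and at least 7.95-fold higher with a second probe set. Ppp1cc, at 7073 and 684, was at least 9.41-fold higher, and Ppp1ca, at 5146 and -3018, at least 6.84-fold. The hippocampus readings of these 4 probe sets were all under 5280.25 in size. Ppp1cc, Ppp1ca, Ppp2cb and the second Ppp1cb probe set passed the filter through the synaptosome reading alone and could only come out higher. Ppp3ca and Ppp3cb, catalytic subunits of the calmodulin-dependent phosphatase calcineurin, had ratios of 0.15 and 0.30. Ppp1r9b, or spinophilin, which anchors protein phosphatase 1 in spines, had a ratio of -0.51 and one of -0.46 with another probe set. The count of higher genes was 1 without suffixed probe sets and 1 among probe sets above the floor on both arrays.

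Other mRNAs known in dendrites had a median of 0.57, against -0.22 and 0.15 for the dim probe sets J02942_at and M16960_s_at of Camk2a. Of 25 listed 23 were on the array and 20 passed, with 6 at least 2-fold higher and 1 lower. Among all genes the shares were 19.1% and 14.3%. Of the higher genes, Shank1, at 2218 and -2651, and Dlgap4 passed the filter through the synaptosome reading alone and could only come out higher. Kcna1, a voltage-gated potassium channel, was 4.89-fold higher, and Ntrk2, the receptor of BDNF, 4.57-fold, at 15928 and 3922. Dlgap4, a postsynaptic scaffold, was divided, at least 3.99-fold higher by U67140_at and at least 2.43-fold lower by U67140_g_at. Each of these probe sets exceeded the floor on 1 array only, which fixed its direction. At the lower end were Nrgn, described above, and Ddn, or dendrin, at 1883 in synaptosomes and 3063 in total hippocampus with a ratio of -0.53. Grin1 came next, at -0.12. Several genes stand in more than 1 of these lists.

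**Figure D4:**
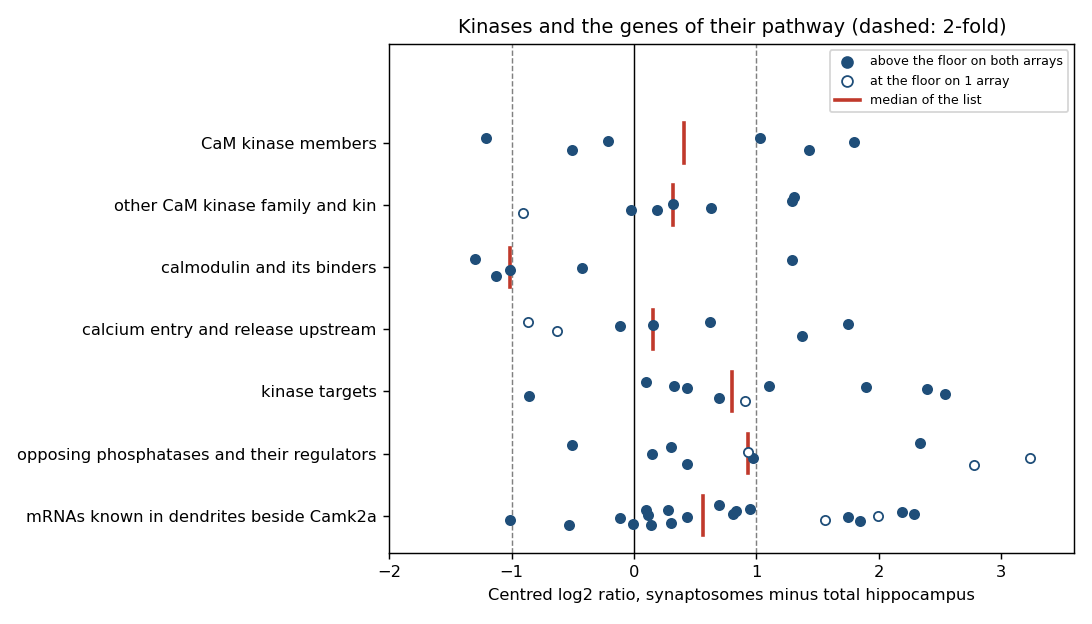
Centred log2 ratio of each gene past the filter in the kinase family and in 6 lists of related genes, with the brightest probe set per gene. Filled points are above the floor on both arrays, red bars are list medians and dashed lines mark 2-fold. Open points are bounds with 1 array at the floor, and could only fall on the side of the other array. The medians run from -1.01 for calmodulin and its binders to 0.93 for the phosphatases, the latter value being itself a bound.

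Markers showed what else the samples held. Of 9 neuronal markers on the array 8 passed the filter, and Slc17a7 was below 0 on both arrays; 1 was at least 2-fold higher and 1 lower, with a median log2 ratio of 0.71; after loess correction 3 were higher and 0 lower. Their signals summed to 154904 in synaptosomes and 190968 in total hippocampus, of which Snap25, the only one of the 8 with a negative ratio, gave 32782 and 109086. All 7 astrocyte markers passed, with 1 higher and 1 lower and sums of 145558 and 118274, of which S100b gave 61538 and 27401. All 6 oligodendrocyte markers passed, with 1 higher and 3 lower and sums of 29296 and 49584. For blood vessels and blood, 4 of 5 passed, with 0 higher and 2 lower, and Vwf was below 0 on both arrays. Their sums were 15007 and 46341, of which Hbb, a globin gene, gave 6811 and 35126. For microglia, 2 of 7 passed, with sums of 10109 and 7059, and Csf1r was below 0 on both arrays. RNA of other cells was therefore present on both arrays, and its part in the kinase ratios was not tested. Signals of different probe sets are not on a common scale, so the sums do not measure cell content. Beside the marker counts, 19.1% of all genes past the filter were at least 2-fold higher and 14.3% lower.

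Over the 10 processing settings, the ratios of 4 of the 6 kinase genes kept their sign wherever a value could be made, namely Camk2a, Camk2g, Camkk1 and Camkk2. Camk2a stayed between -0.39 and -0.034, within 2-fold. Camkk1 and Camkk2 had 1 probe set each, and in no setting did M16960_s_at, with a ratio of 0.15, stand alone for Camk2a. For these 3 genes the kept sign therefore says nothing about agreement between probe sets. Nor does it for Camk2g, whose only other probe set with a ratio, J04063_at, could only come out lower. Camk2d and Camk2b changed sign with the choice of probe set, as described above.

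**Figure D5:**
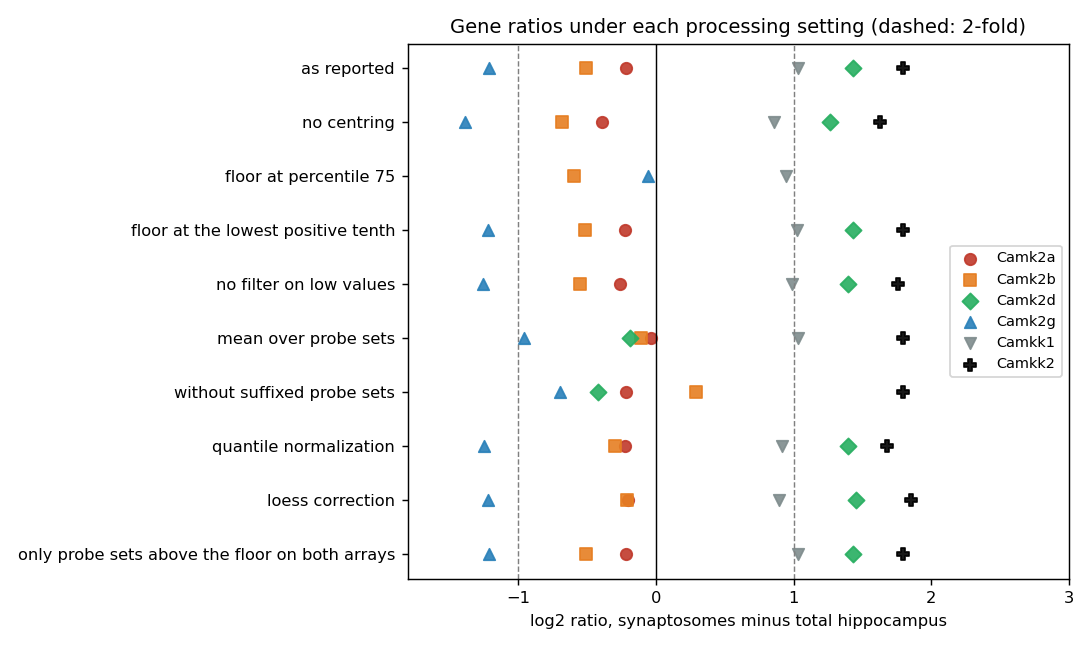
Log2 ratio of the 6 kinase genes past the filter under each of the 10 processing settings, with the reported setting at the top and dashed lines at 2-fold. Camk2a lies between -0.39 and -0.034 where it has a value, and Camk2d turns from 1.43 to -0.19 with the mean over probe sets and to -0.42 without suffixed probe sets; genes that did not pass under a setting have no symbol there.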

How the data were processed

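The authors deposited a table of linear intensity values for 8799 probe sets on 2 arrays, of which 59 are control probe sets. Column-purified total RNA was turned into cDNA with the SMART kit and a T7-tagged oligo(dT) primer, then into biotinylated cRNA, per the labels' protocols. For the scanner software, background correction and scaling, the method is not given in the sources used here. Trimmed means, leaving out 2% of probe sets at each end, were 2504 in synaptosomes and 2505 in total hippocampus, so no further scaling was applied beyond centring. Precision is limited by the number of arrays, 1 per group. The platform's annotation gives 7006 of the 8740 non-control probe sets 1 gene symbol and 308 several, and 1426 are unnamed here. For 6985 of the 7006 the gene identifier was found in the RefSeq gene table of assembly GRCr8, and 0 symbols changed.

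The floor was percentile 50 of pooled non-control readings. The filter was the median of the mean log2 level, which 4370 probe sets passed. A gene took its brightest probe set past the filter. Folds of 2 or more were counted with no test. All 8 members are described with every probe set. From each list the 3 highest and 3 lowest genes were named at most, and the 5 genes nearest to Camk2a in level. The members and lists were chosen with earlier results of these data known. Alternatives were no centring, other floors (263 and 2798.5), no filter, the mean over probe sets, no suffixed probe sets, quantile normalization, loess correction with a span of 0.4, and probe sets above the floor on both arrays. Python 3.11.15, NumPy 2.4.6, pandas 2.3.3, statsmodels 0.14.6 and matplotlib 3.10.9 were used, and the calculations were tested on simulated data.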

Additional observations from a re-analysis of the deposited data

How the results depend on the processing

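Values were compared with the SD of 0.90 between probe sets of a gene, and counts with a factor of 1.5. With the floor of 2798.5, 3 kinases were left, of which 0 were 2-fold higher and 0 lower. Camk2a had no value there, and 173 of all genes were higher and 136 lower. With the mean over probe sets 0 kinases were lower. Without suffixed probe sets 1 was higher and 0 lower. Among probe sets above the floor on both arrays, 311 genes were higher and 230 lower. All other values for Camk2a, its difference from the paralogues, the family median and these counts moved less, 52 of 61 in all; the family median ranged from -0.22 to 0.41 and was negative with the floor of 2798.5, the mean over probe sets and no suffixed probe sets. Among named genes at least 2-fold apart, signs turned for Camk2d (-0.19 with the mean over probe sets, -0.42 without suffixed probe sets), Marcks (-0.076 with the mean) and Slc1a2 (from -1.51 to 1.24 without suffixed probe sets). In each case other probe sets of the gene entered. Some genes within 2-fold changed sign too, among them Camk2b (0.29 without suffixed probe sets). No paired analysis was possible because each group had 1 array. Low signal is a further limit beside the number of arrays: 5 of the 18 kinase probe sets were under the floor on both arrays.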
